A study of Zea mays with 12 samples.

Results

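Transcript levels over 5 microRNA loci of the auxin pathway were examined in primary roots of maize seedlings: zma-MIR167b, zma-MIR167d, zma-MIR167g, zma-MIR160b and zma-MIR393b. They were chosen by name, as the loci of the MIR167, MIR160 and MIR393 families in the deposited table, and make up 5 of its 25 microRNA loci and 5 of its 26451 entries. All roots were of the inbred line B73, grown to 3 days and then treated for 24 h, with 3 biological replicates of 4 to 8 plants for each of 4 groups. The groups were an N-deprived control, 1 mM nitrate, the N-deprived solution with 2 µM TIS108, and 1 mM nitrate with 10 µM PCIB. TIS108 is a triazole inhibitor of strigolactone synthesis, and PCIB (p-chlorophenoxyisobutyric acid) is an inhibitor of auxin action. No group received TIS108 with nitrate, or PCIB without nitrate, so neither inhibitor can be compared across nitrogen supplies.

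The values are FPKM, a unit that by definition relates fragments to feature length and to mapped fragments, with 1 deposited value for each entry and group. Values of single replicates were not analysed here, so no difference below has an SD, a standard error or a p-value, and each is a description of 4 columns. Sequencing depth is unknown. The libraries were made from poly(A) RNA, so the reads come from polyadenylated transcripts over the loci and do not measure mature microRNAs. Such values come from whole roots, in which fewer cells of a type and less RNA per cell cannot be told apart. Summed FPKM lay between 447300 and 497447 in the 4 groups, and the plastid genes psbA, psaB and rbcL, markers of green tissue, were at 0.0823 to 1.04 FPKM. How well poly(A) libraries hold plastid transcripts was not tested, so these values cannot show a lack of green tissue.

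In plants, auxin binds receptors of the TIR1/AFB family, which then mark Aux/IAA repressors for degradation and release auxin response factors (ARFs), the transcription factors that act on auxin-responsive genes. MicroRNAs act at both ends of this chain. In Arabidopsis, miR393 cleaves the mRNAs of the TIR1/AFB receptors, miR167 those of the activating factors ARF6 and ARF8, and miR160 those of the repressing factors ARF10, ARF16 and ARF17, and each of these modules takes part in root branching or root tip growth. A microRNA is cut from a hairpin within a longer, capped and polyadenylated primary transcript, which is what a poly(A) library can hold.

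The deposited table listed some of each family. In RefSeq's annotation of the Zm-B73-REFERENCE-NAM-5.0 genome, maize has 10 MIR167 genes, of which 3 were in the deposited table, 5 MIR160 genes, of which 1 was, and 3 MIR393 genes, of which 1 was; the others were not analysed here. All 5 loci matched this annotation by name. Because its build differs from the B73 RefGen_v4 build named for the data, it served only for names and neighbours, and no coordinates are given. Each of the 5 hairpins lies wholly inside a gene annotated there as a long non-coding RNA: LOC115032965 for MIR167b, LOC115032962 for MIR167d, LOC100381792 for MIR167g, LOC109939912 for MIR160b and LOC118476636 for MIR393b. This was common, since it held for 21 of the 25 microRNA loci of the deposited table (84.0%) and for 73 of the 164 microRNA genes of the RefSeq table (44.5%). The hairpin of MIR167b also lies within a protein-coding gene, LOC100276358, and is 1 of 5 such hairpins among the 25 loci. MIR167a, not analysed here, lies within 3 genes of MIR167g. Each of the 5 loci also had 1 ENSRNA entry with identical values in all 4 columns, as did all 25 microRNA loci. Nothing in the values used here separates reads of a locus from reads of genes that overlap it, so these cannot be told apart.

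All 5 loci were at low levels. Of their 20 values 0 were listed at 0 and 7 reached 5 FPKM. Averaged over the groups, zma-MIR167b was the highest at 6.86 FPKM, followed by zma-MIR393b at 4.95, zma-MIR167g at 3.36, zma-MIR160b at 2.51 and zma-MIR167d at 2.46 FPKM. FPKM is a value per length, but which feature lengths were used is not known here, so this order describes the deposited values. The order changed with the group: zma-MIR167g stood above zma-MIR160b and zma-MIR167d in 3 groups, and below zma-MIR167d when PCIB was added to nitrate. The spread between replicates is not known, so neighbours in this order, above all zma-MIR160b and zma-MIR167d, cannot be ranked firmly.

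zma-MIR167g, of the family that restrains activating ARFs, varied most among the 5. It was at 2.60 FPKM in the N-deprived control, 5.73 FPKM with nitrate, 3.36 FPKM with TIS108, and 1.76 FPKM when PCIB was added to nitrate. The nitrate value stands apart from the other three, and the lowest came from roots that had nitrate too, together with the auxin inhibitor. The highest value was 3.26 times the lowest, which put its range at place 4 among the 25 microRNA loci. Among all 12176 entries with a mean of 1 to 10 FPKM, 6.51% had a range at least as wide.

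zma-MIR167b, of the same family, had another order. It was at 5.47 FPKM in the control, 5.72 FPKM with TIS108, 7.50 FPKM with nitrate and 8.74 FPKM with nitrate plus PCIB. Both groups with nitrate were above both groups without it, and PCIB did not go with a lower level. The highest value was 1.60 times the lowest.

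zma-MIR167d was at 1.82 FPKM in the control, 2.42 FPKM with nitrate, 2.73 FPKM with nitrate plus PCIB and 2.86 FPKM with TIS108. The control was the lowest group, and the 3 others lay close together. The highest value was 1.57 times the lowest, the narrowest range of the 5 loci.

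zma-MIR160b, of the family that restrains repressing ARFs, was at 2.14 FPKM in the control, 3.09 FPKM with nitrate and 3.23 FPKM with TIS108, whereas nitrate plus PCIB gave 1.59 FPKM. Nitrate and TIS108 were near each other and above the control, and nitrate plus PCIB was the lowest. The highest value was 2.03 times the lowest.

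zma-MIR393b, of the family that restrains the auxin receptors, was at 4.48 FPKM in the control roots, 6.31 FPKM under nitrate, 5.26 FPKM under TIS108 and 3.75 FPKM with nitrate and PCIB together. Its 4 groups fell in the same order as those of zma-MIR167g, over a range of 1.68 times. zma-MIR408b, a locus outside the 5, had this order too, over a range of 3.84 times. In all, 2 of the 5 loci had a range of at least 2 times, against 7 of the 20 other microRNA loci and 19.9% of the entries with a mean of 1 to 10 FPKM. Ranges of that width were thus found outside these loci too.

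**Figure D1:**
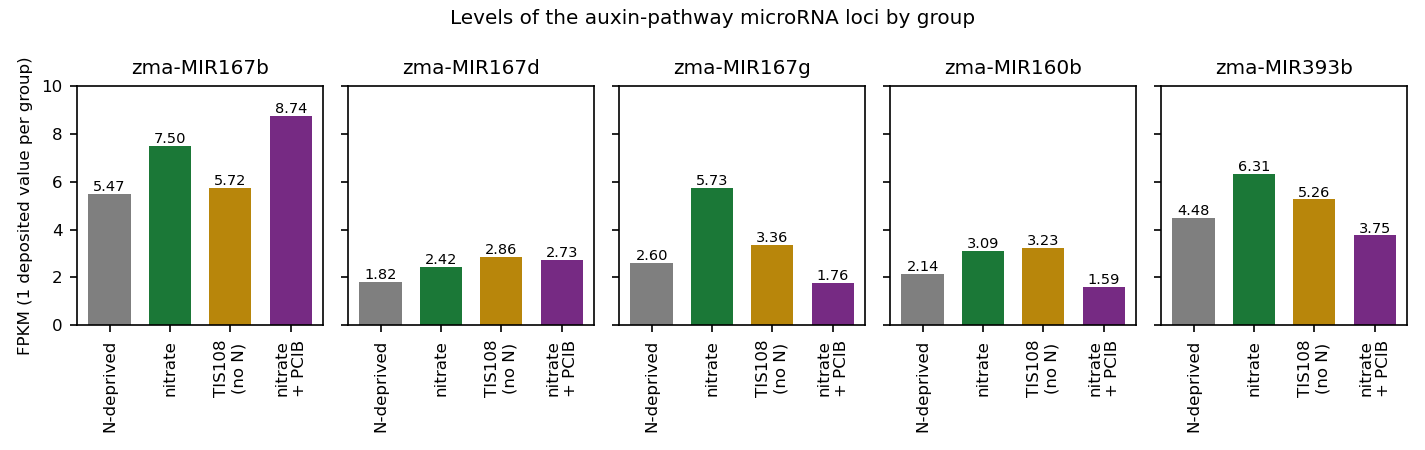
FPKM of each locus (vertical axis) in the 4 groups (horizontal axis), 1 deposited value per bar and therefore no error bars. zma-MIR167g, zma-MIR160b and zma-MIR393b were lowest with nitrate plus PCIB, whereas zma-MIR167b was highest there at 8.74 FPKM.

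The first comparison set nitrate against the N-deprived control, that is, roots with and without nitrate. All 5 loci were above the control with nitrate, whatever their target. zma-MIR167g had the widest difference, 2.21 times the control, and the other 4 were between 1.33 times (zma-MIR167d) and 1.45 times (zma-MIR160b) the control. zma-MIR393b was 1.41 times and zma-MIR167b 1.37 times the control. Over all entries 50.9% were above the control, and of the 20 other microRNA loci 7 were.

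Differences were then taken as log2 of FPKM + 1, which damps differences of low entries, and entries were called 2-fold apart at a log2 difference of at least 1 provided that the higher of the 2 values was at least 5 FPKM. On this scale the median of the 5 loci was 0.39, against -0.08 for the 20 other microRNA loci and 0.01 for all entries. By the 2-fold limit 0 of the 3 loci that reached 5 FPKM were called, and the background was 4.02% of 15510 entries. zma-MIR167g came nearest at 0.90, and it passed the limit with a pseudocount of 0.1 (1.11) or after quantile normalization (1.01). Of the entries with a mean of 1 to 10 FPKM, 5% were above 0.39, and zma-MIR167g, zma-MIR393b (0.42) and zma-MIR167b (0.39) exceeded that value, the last by less than the rounding shown. The other microRNA loci were widely scattered, between -1.15 and 1.40, and 4 of those 20 exceeded it too.

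The second comparison set TIS108 against the same control, that is, roots without nitrogen that did or did not receive the inhibitor of strigolactone synthesis. Each of the 5 loci was again above the control, by smaller amounts for zma-MIR167b, zma-MIR167g and zma-MIR393b than with nitrate. zma-MIR167d was 1.57 times the control and zma-MIR160b 1.51 times, whereas zma-MIR167g was 1.29 times, zma-MIR393b 1.17 times and zma-MIR167b 1.05 times the control. The value of zma-MIR167b was thus nearly that of the control. Over all entries 47.8% were above the control, and 8 of the 20 other microRNA loci were.

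The median log2 difference of the 5 loci was 0.28 with TIS108, against -0.07 for the other microRNA loci and -0.01 for all entries. By the 2-fold limit 0 of the 2 loci that reached 5 FPKM were called, with a background of 1.87% of 15381 entries. zma-MIR167d at 0.45 and zma-MIR160b at 0.43 were above the 95th percentile of the entries with a mean of 1 to 10 FPKM, which was 0.34, as were 3 of the 20 other microRNA loci. The comparisons of nitrate and of TIS108 use the same control column, so a low control value lifts both differences of a locus at once. Their directions for the 5 loci are therefore not independent of each other.

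The direct comparison of TIS108 with nitrate does not use that column. It uses the nitrate column, as do nitrate against the control and nitrate plus PCIB against nitrate. Differences in these comparisons are therefore not independent of each other either. For zma-MIR167g all of them rest on 1 nitrate value, 5.73 FPKM. With TIS108, zma-MIR167g was 0.587 times, zma-MIR167b 0.763 times and zma-MIR393b 0.833 times its nitrate value, while zma-MIR160b was 1.04 times and zma-MIR167d 1.18 times. The 5 loci thus lay on both sides, 2 above and 3 below, where 48.2% of all entries were above. The log2 difference of zma-MIR167g was -0.63, below the 5th percentile of -0.40 among entries with a mean of 1 to 10 FPKM, as were 2 of the 20 other microRNA loci, and 0 of the 3 loci that reached 5 FPKM were called 2-fold apart, against 1.35% of 15066 entries.

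The third comparison set nitrate plus PCIB against nitrate, that is, roots supplied with nitrate that did or did not receive the inhibitor of auxin action. The 5 loci split into those that were lower and those that were slightly higher. zma-MIR167g was 0.306 times its nitrate value, zma-MIR160b 0.513 times and zma-MIR393b 0.595 times. zma-MIR167b was 1.17 times and zma-MIR167d 1.13 times its nitrate value. Loci of all 3 families were thus among the lower, and the MIR167 family was on both sides.

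On the log2 scale zma-MIR167g was at -1.29, zma-MIR160b at -0.66 and zma-MIR393b at -0.62, and zma-MIR167b and zma-MIR167d were at 0.20 and 0.12. After quantile normalization zma-MIR167d was at 0.01, nearly level with nitrate. Among entries with a mean of 1 to 10 FPKM the 5th percentile was -0.48, so that 3 of the 5 loci lay below it, as did 3 of the 20 other microRNA loci. The direction is the opposite of that of most called entries: of 15447 entries at 5 FPKM or more 4.56% were 2-fold apart, and only 0.861% were lower with PCIB. Of the 3 loci that reached 5 FPKM, zma-MIR167g was called lower and 0 were called higher. Among the other microRNA loci 12 reached 5 FPKM, of which 2 were called lower and 0 higher. Calls of this direction were thus found outside the 5 loci too. zma-MIR167g reached 5 FPKM through its nitrate value alone, and its call was lost with a pseudocount of 5 (-0.67) or a minimum of 10 FPKM. Over all entries 47.4% were above nitrate with PCIB, the median was -0.02, and 12 of the 20 other microRNA loci were above.

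**Figure D2:**
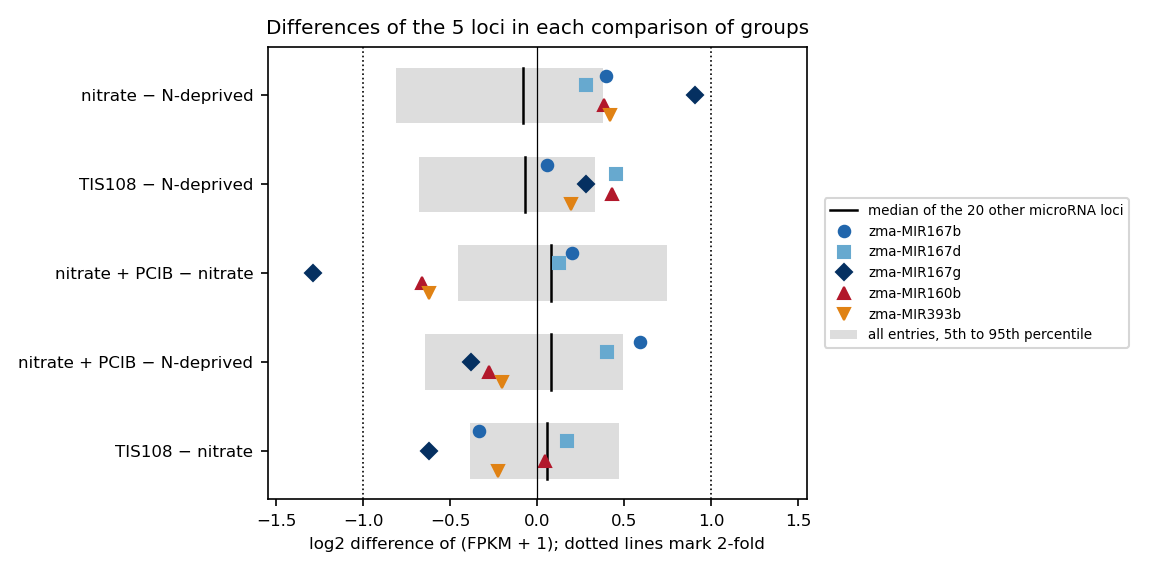
Difference of log2(FPKM + 1) between 2 groups (horizontal axis) for each of the 5 loci (symbols) in 5 comparisons (vertical axis), over grey bars for the 5th to 95th percentile of all 26451 entries and black lines for the median of the 20 other microRNA loci. All 5 loci are right of 0 for nitrate and for TIS108 against the shared control, and only zma-MIR167g, at -1.29 with PCIB, is beyond a dotted 2-fold line.

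Set against the N-deprived control, nitrate plus PCIB left the loci on both sides. zma-MIR167b was 1.60 times and zma-MIR167d 1.49 times the control, and zma-MIR393b was 0.838 times, zma-MIR160b 0.742 times and zma-MIR167g 0.676 times the control. By the 2-fold limit 0 of 1 locus that reached 5 FPKM were called, with 3.91% of 15622 entries as background, and 48.6% of all entries were above the control. zma-MIR167b, at a log2 difference of 0.59, was above the 95th percentile of 0.54 among entries with a mean of 1 to 10 FPKM, as were 2 of the 20 other microRNA loci. In this comparison, which does not use the nitrate column, zma-MIR167g was at -0.38 and not below the 5th percentile of -0.74.

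The MIR167 loci encode microRNAs of 1 family, so their summed level was followed as well. It was 9.89 FPKM in the control roots, 15.6 FPKM under nitrate, 11.9 FPKM under TIS108 and 13.2 FPKM when PCIB was added to nitrate. The sum was thus above the control in each treated group, but its make-up differed. It covers 3 of the 10 MIR167 genes of the RefSeq annotation, and the feature lengths behind FPKM are not known. The percentages below therefore describe the deposited values and cannot be read as shares of MIR167 transcripts. zma-MIR167g gave 26.2% of the sum in the control roots, 36.6% under nitrate, 28.1% under TIS108 and 13.3% when PCIB was added to nitrate. zma-MIR167b gave 55.3%, 47.9%, 47.9% and 66.1% in the same order, and zma-MIR167d gave 18.4%, 15.5%, 23.9% and 20.6%. The ratio of zma-MIR167b to zma-MIR167g does not change when a whole column is multiplied by a factor, though quantile normalization can change it. This ratio was 2.11 in the control roots, 1.31 under nitrate, 1.70 under TIS108 and 4.98 when PCIB was added to nitrate. The 2 loci therefore differed unequally between the groups, most between nitrate and nitrate plus PCIB. Without zma-MIR167g the sum of the other 2 was 7.30 FPKM in the control, 9.92 FPKM with nitrate and 8.58 FPKM with TIS108, whereas nitrate plus PCIB gave 11.5 FPKM.

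**Figure D3:**
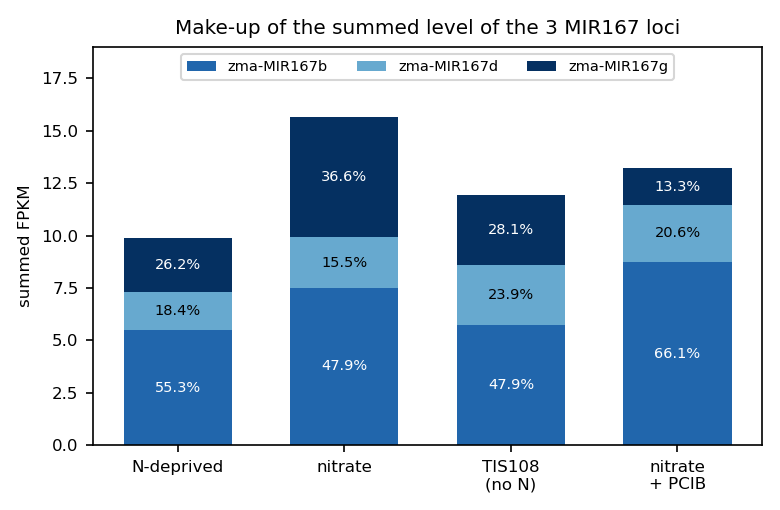
Summed FPKM of the 3 MIR167 loci (vertical axis) in the 4 groups, with the percentage that each locus gave. zma-MIR167g gave 36.6% with nitrate and 13.3% with nitrate plus PCIB.

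Likeness of pattern was measured as the root mean square difference of log2(FPKM + 1) over the 4 groups. Each locus was first centred on its own mean, so that 0 means the same pattern on this scale. The scale damps differences of low loci, so likeness depends on level too. Other pseudocounts were not run for it, and the nearest locus may change with them. Among the 10 pairs of the 5 loci the closest was zma-MIR160b with zma-MIR393b, at 0.12, loci of 2 families that act on different steps of the auxin pathway. zma-MIR167g was nearer to zma-MIR393b (0.24) and zma-MIR160b (0.27) than to its own family members zma-MIR167d (0.50) and zma-MIR167b (0.56), the latter being the least alike of all pairs. zma-MIR167b and zma-MIR167d were 0.23 apart. The 3 pairs within MIR167 thus spanned 0.23 to 0.56, and the pairs across families 0.12 to 0.46.

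For each locus the nearest microRNA locus of another family was then looked up among all 25. That of zma-MIR167b was zma-MIR396d (0.12), of a family that targets growth-regulating factor genes, at 12.6 FPKM in the control roots, 13.9 under nitrate, 10.5 under TIS108 and 16.4 with nitrate and PCIB together. That of zma-MIR167d was zma-MIR159f (0.06), of a family that targets GAMYB genes, whose control was also its lowest group at 4.80 FPKM and whose other groups were at 5.95 to 6.19 FPKM. That of zma-MIR160b was zma-MIR166a (0.09), of a family that targets class III HD-ZIP genes, at 2.05 FPKM in the control roots, 3.05 under nitrate, 3.66 under TIS108 and 1.90 when PCIB was added to nitrate. zma-MIR393b had zma-MIR160b (0.12) and zma-MIR167g had zma-MIR393b (0.24). The median difference from all loci of other families was 0.28 to 0.52 for the 5 loci. With 4 values a pattern, close likeness is easily reached and is given as a description.

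**Figure D4:**
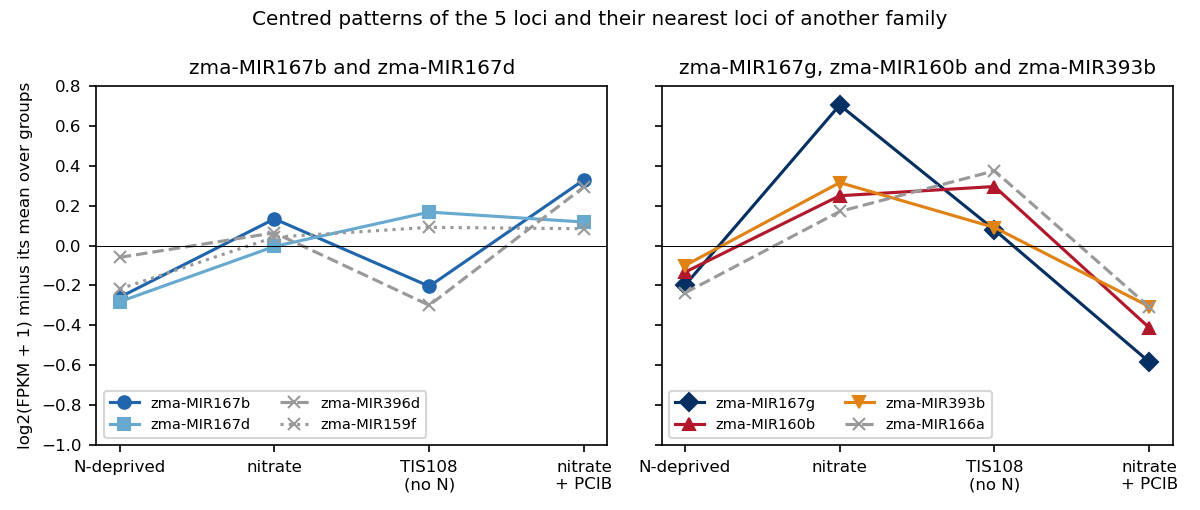
log2(FPKM + 1) minus its mean over the 4 groups (vertical axis) for the 5 loci, in colour, and for other microRNA loci, in grey. The grey loci are the nearest of another family from outside the 5. They are zma-MIR396d for zma-MIR167b, zma-MIR159f for zma-MIR167d, and zma-MIR166a for zma-MIR160b and zma-MIR393b. The nearest such locus to zma-MIR167g is not drawn. Lines join the groups only to guide the eye. zma-MIR167b and zma-MIR167d are at or above their mean with nitrate plus PCIB, and zma-MIR167g, zma-MIR160b and zma-MIR393b are at their lowest there.

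The targets of these microRNAs could not be followed. Of 121 symbols searched for ARF, Aux/IAA, TIR1/AFB, auxin transport and co-repressor genes, 0 stood in the deposited table, and 0 of its 26061 nuclear gene models matched the RefSeq table, so no nuclear gene of the auxin pathway could be named.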

How the data were processed

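The 12 samples of poly(A) RNA from maize primary roots fell into 4 groups of 3 by their titles. Libraries were paired-end and prepared with TruSeq reagents, per the labels' protocols. CASAVA 1.8, Trimmomatic 0.39, TopHat2 2.0.13 and the build B73 RefGen_v4 are named, per the submitters' processing notes, with no role or order. The authors deposited 1 table of FPKM with 1 column per group; not given in the sources used here were the program that gave FPKM, the annotation, the strand setting, any filter and the way replicates were combined. FPKM of short features such as hairpin loci rests on few fragments and is the less stable for it. There were 0 columns of no group. The first 11467 entries carry 3 decimals (zma-MIR167d, zma-MIR167g and zma-MIR393b among them) and the others more; medians of all entries within either part differed from the pooled ones by under 0.01 on the log2 scale.

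With 1 value per group no test across replicates could be made, so levels, ratios of FPKM and differences of log2(FPKM + 1) are given (Python 3.11.15, pandas 2.3.3). An entry was called at 2-fold or more on that scale where the higher group reached 5 FPKM, and the share of all entries called is the background. Percentiles refer to entries with a mean of 1 to 10 FPKM. The call was run on made-up columns with known folds and no noise, for entries at higher levels than these loci. That checks only the arithmetic of the call, not how often it errs at low FPKM. Named loci are the 5 loci and, for each, the nearest microRNA locus of another family. zma-MIR408b was named as well, for its order of groups, after the values were seen. The loci, lists and limits were chosen with earlier results of these data known. Alternatives were other pseudocounts (0.1 and 5), scalings, minimum levels and a 1.5-fold limit.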

Additional observations from a re-analysis of the deposited data

How the results depend on the processing

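Under 8 other settings, of which equal upper quartiles of the columns was added after the values were seen, 192 of the 200 values of the 5 loci kept their side of the limit, 2 fell short of it and 6 passed it. Most that kept their side were values not called to begin with. The only call with the settings used above was zma-MIR167g for nitrate plus PCIB against nitrate, and the 2 that fell short were both of this call. Only the 3 scalings of columns could turn a direction, and 0 of their 75 values did; pseudocounts, minimum levels and the fold limit cannot turn one. The columns hold groups, not replicates, so leaving out replicates was not run. No paired analysis was possible because the table has 1 column per group. Of the 5 loci, zma-MIR167g passed for nitrate against the control with a pseudocount of 0.1 (1 locus called), after quantile normalization (1) and at 1.5-fold (1). For PCIB against nitrate 0 loci were called with a pseudocount of 5 and 0 at a minimum of 10 FPKM, and 2 at 1.5-fold, zma-MIR393b being the other. At 1.5-fold 1 locus each was called for nitrate plus PCIB against the control (zma-MIR167b) and for TIS108 against nitrate (zma-MIR167g). The cause was not tested.

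Counts over all entries, higher then lower, were 87 and 536 for nitrate against the control, 3 and 284 for TIS108 against it, 572 and 133 for nitrate plus PCIB against nitrate, 299 and 312 for nitrate plus PCIB against the control, and 114 and 90 for TIS108 against nitrate. In that order they were 50 and 189, 0 and 105, 289 and 50, 173 and 109, and 33 and 47 with a pseudocount of 5. At 1.5-fold they were 257 and 1512, 86 and 1193, 1289 and 468, 710 and 931, and 469 and 286. A minimum of 10 FPKM gave 325 lower with nitrate, 88 lower with PCIB than with nitrate, 195 lower with PCIB than in the control, and 67 higher with TIS108 than with nitrate. No minimum gave 5 higher with TIS108, 471 lower with PCIB than in the control and 172 higher with TIS108 than with nitrate. Entries higher with TIS108 than in the control numbered 12 with a pseudocount of 0.1, 8 after quantile normalization and 14 when columns were scaled to equal sums. That scaling to equal sums moved the median of all entries for TIS108 against the control from -0.01 to 0.10, and the 5 loci, at 0.19 to 0.56, were still above that median.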

Other observations

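The nuclear gene models listed next to the loci in the order of the table were also read, an order not stated to be that of the genome and a choice made after the values were seen. The model after zma-MIR167b, Zm00001d013294, was at 1.93 FPKM in the N-deprived control, 2.31 FPKM with nitrate, 1.84 FPKM with TIS108 and 4.00 FPKM with nitrate plus PCIB, so that nitrate plus PCIB was the highest group in both entries. The root mean square difference of their centred patterns was 0.15. For the other neighbours of the 5 loci it was 0.17 to 0.59. The model before zma-MIR167b, Zm00001d013290, was highest with nitrate, at 35.3 FPKM against 34.2 FPKM with nitrate plus PCIB. Nitrate plus PCIB was also the highest group in Zm00001d034433 and Zm00001d034434 beside zma-MIR167d, Zm00001d014391 beside zma-MIR160b and Zm00001d039887 beside zma-MIR393b. Some of these were near ties. Zm00001d039887 was at 0.782 FPKM with nitrate plus PCIB against 0.78 FPKM in the control. Zm00001d034434 was at 4.13 FPKM with nitrate plus PCIB against 4.05 FPKM with TIS108. The remaining neighbours were highest in another group. Whether transcripts of neighbouring or overlapping genes add to the values of the loci was not tested.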
